A study of Mus musculus with 6 samples.

Results

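The SLC25 solute carriers were examined in distal colon RNA as all genes of the deposited table whose symbol is Slc25a followed by a number, with Slc25a20, the carnitine-acylcarnitine carrier, left out. The rule uses no measured value, but the family was chosen with earlier results of these data known. It found 44 members among 19844 genes. The tissue came from C57BL6 mice on day 17 of treatment with the carcinogen azoxymethane and with dextran sulfate sodium, which damages the epithelium of the colon. One group held 3 wild-type animals and the other 3 animals labelled as knockouts of ChREBP, the glucose-responsive transcription factor encoded by Mlxipl, and all 6 mice received both agents, so an untreated colon is not part of the comparison. The labels describe neither the deleted part of the gene nor the cells that lack it, and the replicates are labelled as separate samples. Levels are in FPKM, fragments scaled to transcript length and to the mapped total, which allows levels of different genes to be set side by side.

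Carriers of this family sit mostly in the inner mitochondrial membrane and move nucleotides, phosphate, carboxylic acids, amino acids and cofactors between the cytosol and the matrix. They set what the respiratory chain can use and what the mitochondrion gives back for synthesis in the cytosol. The citrate carrier, for example, exports the carbon from which ChREBP target enzymes of liver and fat make fatty acids. In the gene annotation that the authors deposited with the values, 42 of the 44 members carried a term for mitochondria or for an organelle inner membrane. Of the other 2, Slc25a17 carried a peroxisomal membrane term and Slc25a54 neither.

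Each library held an estimated 17450000 to 18275000 reads. The epithelial and colonocyte markers of the colon were abundant in every library, with 8 epithelial markers summing to between 5032 and 6062 FPKM. The 6 small intestinal markers summed to between 24.6 and 55.6 FPKM, mostly from Rbp2 (18.1 to 43.2), and Sis and Lct among them reached at most 0.03. Mlxipl itself was at 5.84, 7.49 and 7.27 FPKM in wild-type replicates 1 to 3 and at 3.40, 5.66 and 5.04 in knockout replicates 1 to 3, so its transcript was still present. The knockout libraries were all below the wild-type ones (log2 fold change -0.48, SE 0.18), and the limma adjusted p was 0.9995. Neutrophil markers (5 genes) summed to 5.76 to 7.34 FPKM in wild type and to 6.17 to 18.4 in knockout, highest in knockout replicate 1. Of 6 goblet cell markers 1 had a positive and 5 a negative log2 fold change, and Clca1 among them had all knockout libraries below (1697 ± 177 against 2497 ± 411 FPKM, unadjusted limma p of 0.0121, limma adjusted p = 0.9995). Goblet sums were 9851 to 12872 FPKM in wild type and 7496 to 12782 in knockout. Of 8 leukocyte markers 1 was positive and 7 negative, with sums of 175.6 to 309.2 and 173.1 to 255.2 FPKM. The part of these cells in the values of the carriers was not tested. The labels call all 6 mice female, whereas the Y-linked gene Ddx3y was at 9.51 FPKM or more and Xist at 0.04 or less in each of the 6 libraries.

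The family spans a wide range of levels. By mean over the 6 libraries, 2 members were above 100 FPKM, 9 between 20 and 100, 17 between 5 and 20, 8 between 1 and 5, and 8 under 1. The median of the 36 members that reached 1 FPKM in at least 3 libraries was 12.7 FPKM, against 9.96 over all 13247 genes that did. The summed FPKM of the 44 members was between 1562 and 1752 per library, and Slc25a5 with Slc25a3 made up between 60.8% and 63.5% of it. The lowest library of Slc25a5 lay above the highest of Slc25a3, which in turn lay above every library of the third member, Slc25a39. From Slc25a24 down to Slc25a11, and again from Slc25a35 down to Slc25a15 and from Slc25a32 down to Slc25a30, the ranges of neighbouring members overlapped.

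**Figure D1:**
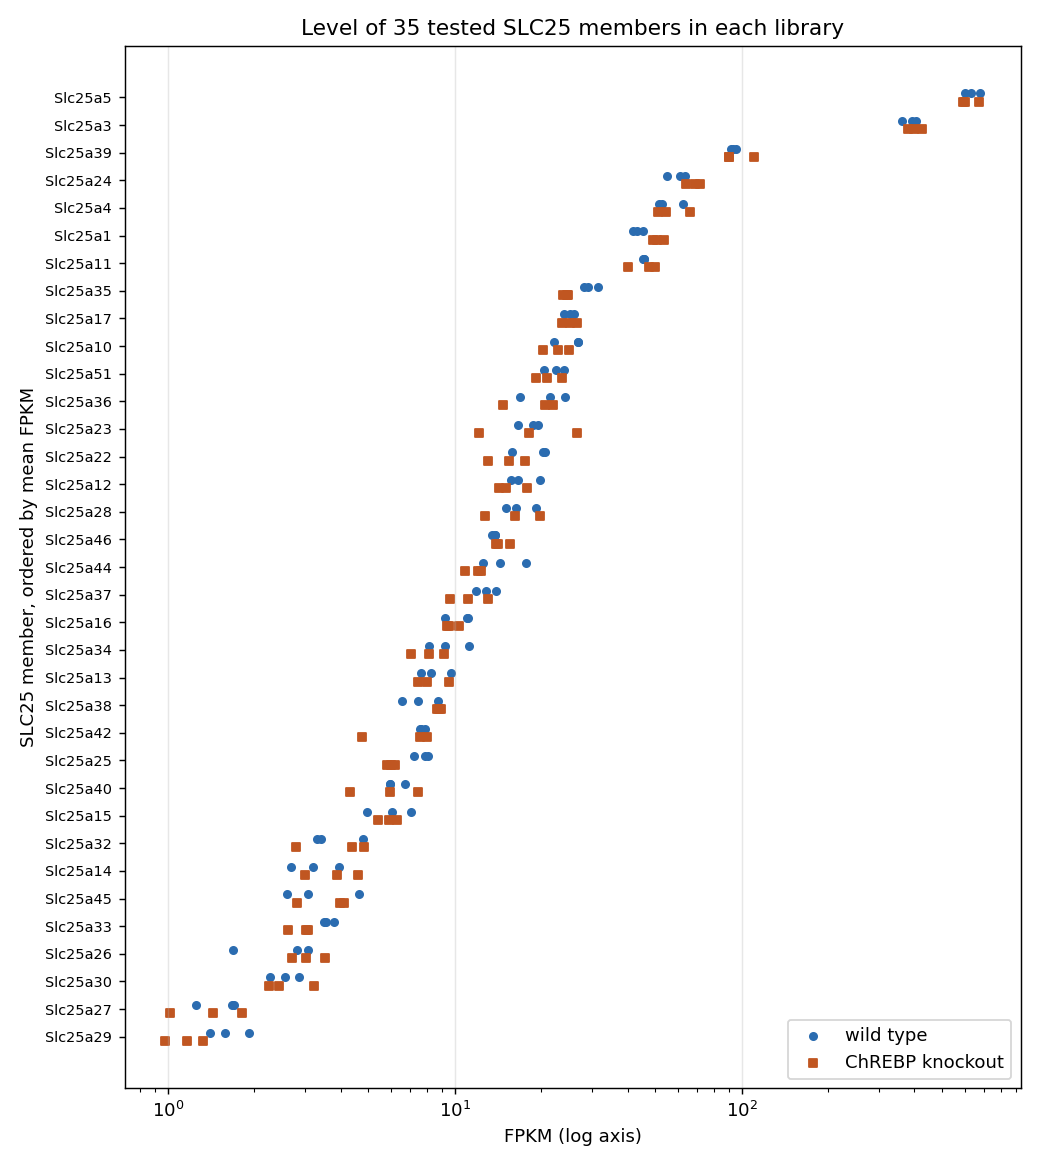
FPKM (log axis) of 35 of the 36 SLC25 members tested, ordered by mean, with 1 point per library (blue circles for wild type, orange squares for knockout). Slc25a5 and Slc25a3 stand above all others, and the points of the 2 genotypes overlap for all but 8 of those drawn.

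The 8 members that did not enter the test were Slc25a47, Slc25a53, Slc25a43, Slc25a48, Slc25a31, Slc25a21, Slc25a18 and Slc25a54. Nearest the filter from below were Slc25a47, with means of 1.01 FPKM in wild type and 0.963 in knockout, Slc25a53 (0.787 and 0.713) and Slc25a43 (0.383 and 0.290). Nearest from above were Slc25a29 (1.63 and 1.16), Slc25a27 (1.54 and 1.42) and Slc25a30 (2.56 and 2.64). Slc25a31, an ADP/ATP carrier of male germ cells, was at 0.26 FPKM or less in every library. The glutamate carrier gene Slc25a18 was listed at 0 in 4 libraries and Slc25a54 in 5.

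No member passed the test of genotype. Knockout and wild type were compared with limma on log2(FPKM + 1) over all 13247 genes, and of the 36 members tested 0 had a Benjamini-Hochberg adjusted p under 0.05 (limma adjusted p = 0.9995 for each), where 0.0151% of all genes did. At an unadjusted p under 0.05 there were 3 members (8.33%), 1 higher and 2 lower in the knockout, against 3.4% of all genes, 1.7% in each direction. The 3 knockout libraries lay wholly on one side of the 3 wild-type libraries for 8 members (22.2%), where 8.67% of all genes showed this. Of these, 3 members had all knockout libraries above (4.53% of all genes) and 5 had all below (4.14%). Positive log2 fold changes were found in 14 of 36 members (38.9%, against 52.7% of all genes), and the median was -0.05, against 0.01 over all genes. With all 36 intervals inside 2-fold in either direction (97% of all genes), the widest bounds were -0.62 and 0.65 after the log2(FPKM + 1) transformation. Adding 1 shrinks fold changes of weakly expressed members. Bulk values cannot tell fewer cells of a type from less RNA per cell.

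**Figure D2:**
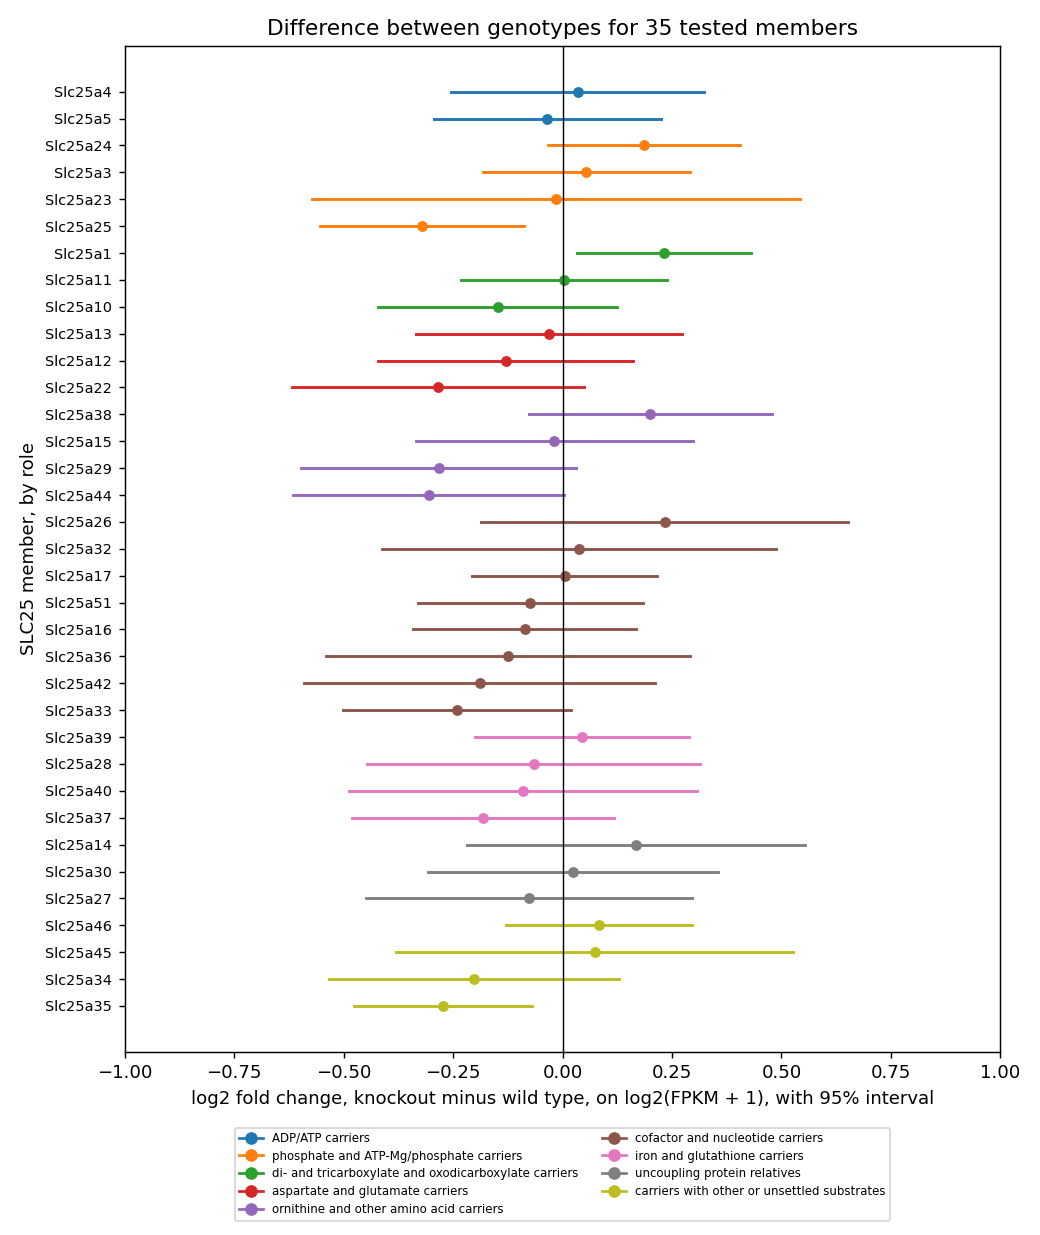
Log2 fold change from log2(FPKM + 1), positive where the knockout is higher, of 35 of the 36 tested members with limma's 95% interval, coloured by role. Intervals lie on one side of 0 for Slc25a25 and Slc25a35 (lower) and Slc25a1 (higher), and none of those drawn passed the test over all genes.

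Among the carriers of adenine nucleotides, which exchange cytosolic ADP for matrix ATP, Slc25a5 was the most abundant member of the family. It was at 675, 599 and 628 FPKM in wild-type replicates 1 to 3 and at 588, 672 and 599 in knockout replicates 1 to 3. The genotypes overlapped, with a log2 fold change of -0.03 (95% interval -0.29 to 0.22). Processed pseudogenes of Slc25a5 exist, and reads may be shared with them. Slc25a4, the form known as the main one of heart and skeletal muscle, was at 51.7, 62.5 and 52.9 in wild type and at 51.1, 54.6 and 65.9 in knockout. Its highest libraries were wild-type replicate 2 and knockout replicate 3, and the groups overlapped (log2 fold change 0.03, interval -0.26 to 0.32). Slc25a5 was between 9.09 and 13.1 times as high as Slc25a4 in FPKM.

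The phosphate carrier Slc25a3, which brings in the phosphate used by ATP synthase, was at 404, 391 and 363 FPKM in wild type and 379, 426 and 399 in knockout, and the groups overlapped (log2 fold change 0.05, interval -0.18 to 0.29). The calcium-regulated carriers that exchange ATP-Mg for phosphate were placed in different ways. Slc25a25 was at 7.22, 8.07 and 7.87 FPKM in wild type and at 5.99, 5.78 and 6.17 in knockout. Every knockout library was below every wild-type library, and the knockout mean of 5.98 ± 0.195 (SD, n = 3) was 77.5% of the wild-type mean of 7.72 ± 0.444. The log2 fold change was -0.32 (SE 0.10), with the smallest unadjusted limma p of the family at 0.0132, and its limma adjusted p was 0.9995.

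Slc25a24, the most abundant ATP-Mg carrier, was at 63.4, 60.9 and 55.1 FPKM in wild type and at 68.8, 64.2 and 71.5 in knockout. All 3 knockout libraries were above the wild-type ones, but the nearest values, 63.4 and 64.2, differed by less than the SD within either group (log2 fold change 0.19, interval -0.03 to 0.41). The ratio of Slc25a24 to Slc25a25 was 8.78, 7.54 and 7 in wild type and 11.5, 11.1 and 11.6 in knockout, and these ranges did not overlap either. No test was made of that ratio, since both genes had been singled out by their values. Slc25a25 shares 379 of 4120 exon bases with Naif1 on the opposite strand in the GENCODE vM21 annotation (GRCm38), and no strand-marking step is named for the libraries. Naif1 averaged 1.34 ± 0.197 FPKM (wild type) and 1.77 ± 0.202 (knockout), the opposite order to that of Slc25a25, and the part of shared reads was not tested.

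The third ATP-Mg carrier, Slc25a23, had the widest interval among members at 5 FPKM or more. It was at 16.6, 19.5 and 18.8 FPKM in wild type and at 12.1, 18.1 and 26.7 in knockout, so that the lowest and the highest library were both knockouts. The log2 fold change was -0.01 (interval -0.57 to 0.54). The 8 smooth muscle markers Myh11, Acta2, Des, Tagln, Cnn1, Actg2, Mylk and Lmod1 summed to 2713 to 3706 FPKM in wild type and 2906 to 4438 in knockout, highest in knockout replicate 3. In that library Slc25a23 was at 143%, Slc25a4 at 117% and the marker sum at 134% of their means over 6 libraries, and in wild-type replicate 2 they were at 105%, 111% and 112%. In knockout replicate 1 Slc25a23 was at 65.1% while the marker sum was at 93.3%, so the values do not run in parallel everywhere. All 8 smooth muscle markers had positive log2 fold changes (median 0.15), and 0 of 8 had an unadjusted limma p under 0.05. The 7 skeletal muscle markers summed to 8.67 to 16.1 FPKM in wild type and 9.86 to 15.5 in knockout. Of these, the myosins Myh1 and Myh4 were at 0.04 FPKM or less throughout, Mb at 0.06 or less and Myh2 at 0.55 or less. Ckm, muscle creatine kinase, was at 4.53 to 7.09 in wild type and 5.70 to 11.2 in knockout, highest in knockout replicate 3. Acta1 ran the other way, at 2.87 to 6.74 in wild type and 2.30 to 5.12 in knockout, lowest in knockout replicate 3. Tnnt3 was at 0.88 to 1.67 in wild type and 0.94 to 1.54 in knockout. The part of muscle content in the values of these carriers was not tested.

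**Figure D3:**
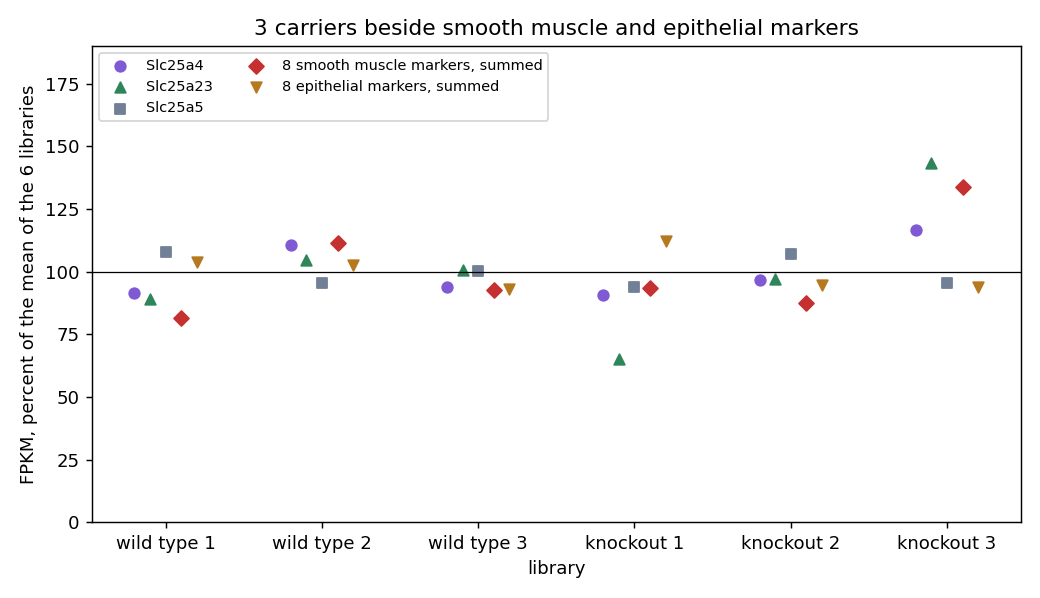
FPKM of Slc25a4, Slc25a23 and Slc25a5 and the summed FPKM of 8 smooth muscle and 8 epithelial markers, each as a percent of its own mean over the 6 libraries, by library. Slc25a23 and the smooth muscle sum are highest in knockout replicate 3, at 143% and 134%, where the epithelial sum is at 94.0%. The epithelial sum is as low in wild-type replicate 3 (93.1%) and knockout replicate 2 (94.5%), where the smooth muscle sum is at 92.4% and 87.5%. In knockout replicate 1 Slc25a23 is at 65.1% and the smooth muscle sum at 93.3%.

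The carboxylate carriers include the member with the smallest p among those higher in the knockout. Slc25a1, the citrate carrier, was at 45.4, 43.0 and 41.7 FPKM in wild-type replicates 1 to 3 and at 50.6, 53.4 and 49.2 in knockout replicates 1 to 3. The knockout libraries were all above the wild-type ones, the nearest being 49.2 and 45.4. The means were 43.4 ± 1.90 and 51.1 ± 2.16 (SD, n = 3). The log2 fold change was 0.23 (SE 0.09), with an unadjusted limma p of 0.0278 and a limma adjusted p of 0.9995. Slc25a11, which exchanges 2-oxoglutarate for malate, was within 45.2 to 45.8 FPKM in wild type and at 40.2, 49.7 and 47.5 in knockout (log2 fold change 0.00, interval -0.23 to 0.24). Slc25a10, which exchanges malate or succinate for phosphate, was at 26.8, 26.9 and 22.2 in wild type and at 24.98, 22.9 and 20.4 in knockout, with overlapping groups. Slc25a21, a carrier of longer oxodicarboxylates formed in lysine breakdown, was at 0.12 FPKM or less.

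Since ChREBP binds DNA with its partner Mlx at carbohydrate response elements built from paired E-boxes, the promoters of the members were read for those letters. Of 44 members, 35 had a promoter in the RefSeq table of GRCm38.p6, each window running from 250 bases before to 50 after an annotated start, 45 windows in all. The palindrome CACGTG, which reads the same on both strands, was in 8 windows of 7 members (20% of 35 members), against 11.5% of 10463 tested genes with a promoter and 8.09% of all 27025 genes with one. The 35 include members too low to be tested, Slc25a31 with the letters among them, whereas the 11.5% is of tested genes only. The paired form was searched only as exact copies of CACGTG on both sides of a spacer of fixed length. It was in 0 of the 45 windows and in 0 of all 32851. With 0 matches in any promoter, the search cannot decide whether a member has a carbohydrate response element. Paired E-boxes with other letters or another spacing were not searched. The palindromic motif of the nuclear respiratory factor NRF1 was searched on both strands, only as exact copies of a fixed string of letters. It was in 0 of the 45 windows and in 1.87% of those of tested genes. At so low a share, 0 of 45 windows cannot decide whether the members hold the motif less often than tested genes. Forms of the motif with other letters were not searched. A match is a description of the letters and not a site of binding.

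The stretches around each CACGTG, capitals marking it, are shown because they hold every match to these letters in the members' promoters, other E-box letters not having been searched; Slc25a14 has 2 windows that share the same stretch.
Slc25a1, chr16:17928433-17928469, minus strand: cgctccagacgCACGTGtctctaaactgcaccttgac
Slc25a33, chr4:149774250-149774295, minus strand: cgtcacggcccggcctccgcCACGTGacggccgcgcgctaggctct
Slc25a36, chr9:97111203-97111248, minus strand: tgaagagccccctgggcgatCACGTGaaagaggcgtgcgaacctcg
Slc25a13, chr6:6217273-6217318, minus strand: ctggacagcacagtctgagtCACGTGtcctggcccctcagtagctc
Slc25a15, chr8:22398329-22398374, minus strand: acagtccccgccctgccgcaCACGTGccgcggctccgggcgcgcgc
Slc25a14, chrX:48623374-48623419, plus strand: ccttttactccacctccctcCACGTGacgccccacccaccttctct
Slc25a31, chr3:40708758-40708803, plus strand: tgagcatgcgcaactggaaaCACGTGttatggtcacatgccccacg

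The first base of CACGTG lay 239 bases before the start of Slc25a1, 8 before that of Slc25a33 and 187 before that of Slc25a36. For Slc25a1, the member with these letters that had the smallest p, the 250 bases before the start (chr16:17928220-17928469, minus strand, GRCm38.p6 from RefSeq) are given with CACGTG in capitals.
Slc25a1 promoter: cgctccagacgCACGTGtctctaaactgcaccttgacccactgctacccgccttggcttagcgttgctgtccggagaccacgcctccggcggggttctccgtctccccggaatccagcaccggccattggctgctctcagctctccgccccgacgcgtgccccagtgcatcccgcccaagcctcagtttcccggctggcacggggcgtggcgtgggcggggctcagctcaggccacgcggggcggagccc
The 7 members with the letters did not share a direction: the log2 fold changes of Slc25a1 and Slc25a14 were 0.23 and 0.17, those of Slc25a33, Slc25a36, Slc25a13 and Slc25a15 were -0.24, -0.13, -0.03 and -0.02, and Slc25a31 was too low to be tested.

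Aspartate and glutamate carriers feed the malate-aspartate shuttle and the glutamate pool of the matrix, and all 3 tested members had negative log2 fold changes, none with an unadjusted p under 0.05. Slc25a22, the main glutamate carrier here, was at 15.8, 20.2 and 20.7 FPKM in wild type and at 17.5, 15.4 and 13.1 in knockout. Wild-type replicate 1 lay among the knockout libraries, and the log2 fold change was -0.28 (interval -0.62 to 0.05). The aspartate-glutamate exchangers Slc25a12 and Slc25a13 had log2 fold changes of -0.13 (interval -0.42 to 0.16) and -0.03 (interval -0.33 to 0.27). Slc25a12 was at 16.7, 15.7 and 19.8 FPKM in wild type and at 14.3, 15.1 and 17.9 in knockout, and Slc25a13 at 9.67, 8.27 and 7.61 against 9.54, 7.44 and 7.98. Both pairs of ranges overlapped, and Slc25a12 was between 1.5 and 2.60 times as high as Slc25a13 in FPKM. Of the 4 shuttle enzymes Mdh1, Mdh2, Got1 and Got2, 1 had a positive and 3 a negative log2 fold change. Got1, the cytosolic aspartate aminotransferase, was at 29.1, 29.6 and 28.4 FPKM in wild type and at 22.8, 24.8 and 22.4 in knockout, all below the wild-type ones, with an unadjusted limma p of 0.0086 and a limma adjusted p of 0.9995.

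Among carriers of other amino acids, Slc25a44, which brings branched-chain amino acids into mitochondria, was at 12.6, 14.3 and 17.7 FPKM in wild type and at 12, 12.3 and 10.8 in knockout. The knockout libraries were all below, but wild-type replicate 1 and knockout replicate 2 differed by less than the SD of either group (log2 fold change -0.31, interval -0.62 to 0.00). Slc25a29, a carrier of basic amino acids, was near the filter, at 1.58, 1.40 and 1.91 against 0.98, 1.17 and 1.33 FPKM. Its groups did not overlap, and the log2 fold change was -0.28 (interval -0.60 to 0.03). Slc25a38, needed for the glycine that heme synthesis uses, was at 8.75, 7.46 and 6.55 in wild type and between 8.65 and 8.96 in knockout, where wild-type replicate 1 overlapped (log2 fold change 0.20, interval -0.08 to 0.48). The ornithine carrier Slc25a15 was at 6 ± 1.04 and 5.87 ± 0.461 FPKM (SD, n = 3).

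The 9 carriers of cofactors and nucleotides were all tested, and 3 had positive and 6 negative log2 fold changes (median -0.09). Slc25a33, a carrier of pyrimidine nucleotides, was at 3.49, 3.57 and 3.79 FPKM in wild type and at 2.63, 3.02 and 3.08 in knockout. All knockout libraries were below the wild-type ones (log2 fold change -0.24, SE 0.11, interval -0.50 to 0.02). Its relative Slc25a36, which carries the same nucleotides, was at 16.9, 21.4 and 24.3 against 14.7, 20.7 and 21.9, with overlapping groups. The other 7 also overlapped: Slc25a17, the peroxisomal carrier, was the steadiest member of the family, with a coefficient of variation of 4.73% over the 6 libraries against a median of 12.5% for the 36 members. Slc25a51, which imports NAD, was at 22.3 ± 1.80 and 21.2 ± 2.23 FPKM, and Slc25a42, a carrier of coenzyme A, at 7.70 ± 0.144 and 6.77 ± 1.77. The wide spread of the latter came from knockout replicate 1, at 4.75 FPKM. Slc25a16 ranged from 9.21 to 11.1 FPKM and Slc25a32, the folate and flavin carrier, from 2.80 to 4.82. The S-adenosylmethionine carrier Slc25a26 had the largest positive log2 fold change of the family, 0.23, but an interval of -0.19 to 0.65. It shares 139 of 1922 exon bases with opposite-strand Lrig1, whose mean was 29.4 FPKM against 2.81 for Slc25a26, and Slc25a33 shares 281 of 1887 with the antisense gene Gm13068. The part of shared reads in these values was not tested.

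Iron and glutathione carriers overlapped between genotypes in every case. Slc25a39, which brings glutathione into mitochondria, was the third member by level, at 91.8, 93.2 and 95.5 FPKM in wild type and at 89.9, 110.5 and 90.5 in knockout. Its relative Slc25a40 was at 5.96, 5.94 and 6.73 against 5.92, 7.43 and 4.30, so Slc25a39 was between 14.2 and 21.0 times as high. The iron importers, the mitoferrins Slc25a28 and Slc25a37, were at similar levels to each other, Slc25a28 being between 1.27 and 1.51 times as high. Slc25a28 was at 15.1, 16.3 and 19.2 in wild type and at 16.2, 19.8 and 12.7 in knockout, and Slc25a37 at 11.8, 12.8 and 13.9 against 11.1, 13.1 and 9.60. Slc25a37 serves heme synthesis in red cell precursors, and the 7 erythroid markers summed to 57.2 to 141.4 FPKM in wild type and 70.8 to 118.8 in knockout. Of these, Alas2 was at 0.65 FPKM or less in every library.

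The relatives of the uncoupling proteins were low and did not differ beyond their spread. Slc25a14 was at 3.94, 2.69 and 3.20 FPKM in wild type and at 3.00, 4.58 and 3.87 in knockout, and Slc25a30 at 2.87, 2.55 and 2.27 against 3.22, 2.44 and 2.25. Slc25a27 was at 1.54 ± 0.252 and 1.42 ± 0.395 FPKM (SD, n = 3). Among the genes of this protein family under other symbols, Ucp2 was far higher, with means of 376 ± 72.2 (wild type) and 345 ± 32.2 FPKM (knockout), while Ucp1 reached at most 0.03 and Ucp3 at most 0.07. Mtch1 and Mtch2, carrier-like proteins of the outer membrane, were at 97.5 ± 2.42 and 108 ± 11.3 and at 53.4 ± 1.12 and 54.9 ± 5.51 FPKM.

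Of the carriers whose substrate is less settled, Slc25a35 differed most by p. It was at 28.2, 31.6 and 29.2 FPKM in wild type and at 23.8, 24.6 and 24.7 in knockout. The knockout libraries lay close together and all below the wild-type ones, and their mean of 24.4 ± 0.514 was 82.1% of the wild-type mean of 29.7 ± 1.75 (SD, n = 3). The log2 fold change was -0.27 (SE 0.09, unadjusted limma p of 0.0149, limma adjusted p = 0.9995). Slc25a35 shares 820 of 3677 exon bases with Rangrf on the opposite strand (GENCODE vM21). Rangrf was at 27.3, 27.9 and 29.2 FPKM in wild type and at 23.6, 31.8 and 22.5 in knockout, so knockout replicates 1 and 3 were below every wild-type library and knockout replicate 2 was the highest of all. The ratio of Slc25a35 to Rangrf was 1.04, 1.13 and 0.999 in wild type and 1.01, 0.772 and 1.1 in knockout, and these ranges overlapped. The part of shared reads in the values of Slc25a35 was not tested. Its near relative Slc25a34 was at 11.2, 8.12 and 9.25 against 7.06, 9.20 and 8.10 FPKM, with overlapping groups. Slc25a46, an outer membrane protein of mitochondrial fusion and fission, had its 3 knockout libraries (14.2, 14.0 and 15.6) above the wild-type ones (13.8, 13.5 and 13.8), but by less than the SD of either group at the nearest (log2 fold change 0.08, interval -0.13 to 0.30). Slc25a46 shares 374 of 4371 exon bases with B930094E09Rik on the opposite strand, and the part of shared reads in its values was not tested. Slc25a45 ranged from 2.61 to 4.65 FPKM with overlapping groups.

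**Figure D4:**
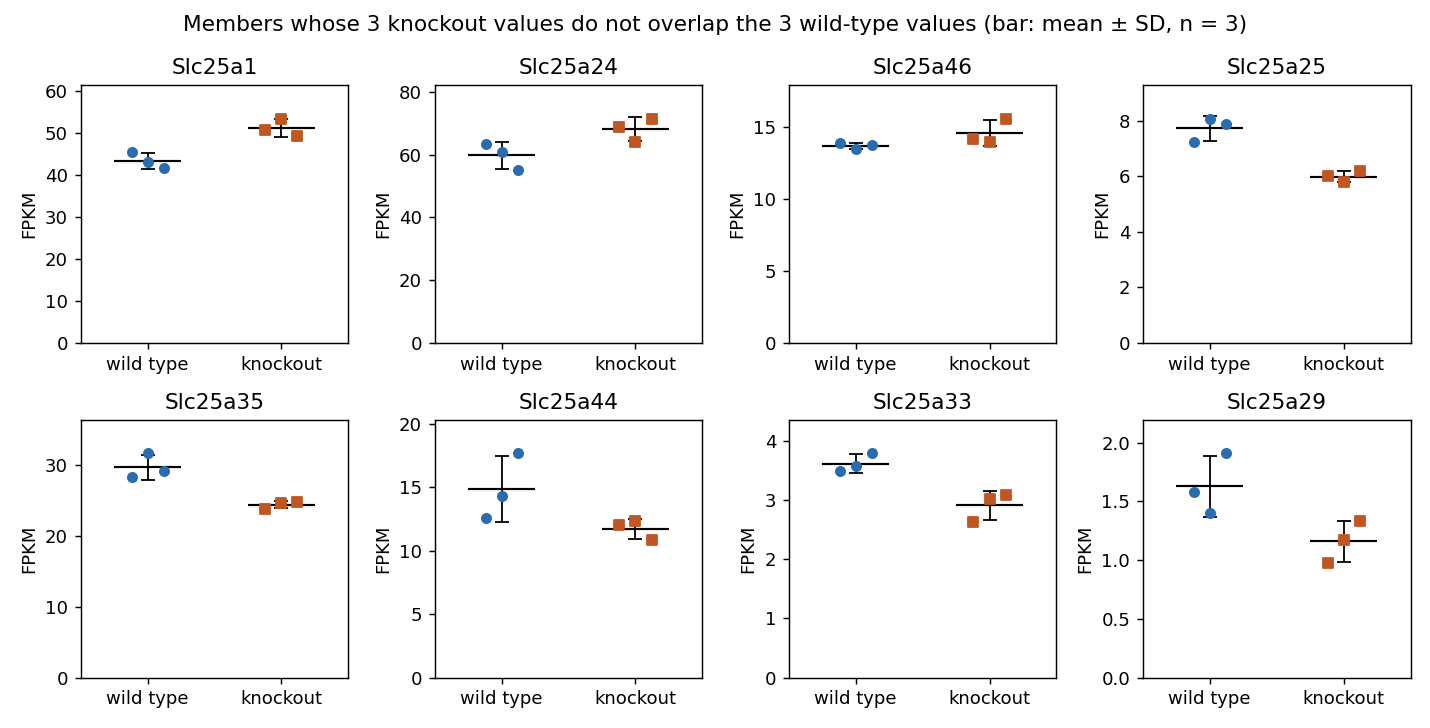
FPKM of the 8 members whose 3 knockout libraries did not overlap the 3 wild-type libraries, 1 point per library with the mean ± SD of each group (n = 3). The upper row holds Slc25a1, Slc25a24 and Slc25a46, higher in the knockout libraries, and Slc25a25, lower, and the lower row holds Slc25a35, Slc25a44, Slc25a33 and Slc25a29, all lower.

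Genes that serve the same membranes were set beside the family. The TIM22 pathway, which inserts these carriers into the inner membrane, had 13 tested genes with 7 positive and 6 negative log2 fold changes (median 0.03), and 0 of them had an unadjusted limma p under 0.05. Its members with the smallest p were Timm29, listed as 1810026J23Rik (15.3 ± 1.19 FPKM in wild type and 13.1 ± 0.842 in knockout), the lipid kinase Agk (4.56 ± 0.691 and 5.58 ± 0.438) and Timm10b (14.0 ± 0.348 and 16.3 ± 2.35). Of the 13 genes, 3 had all knockout libraries above the wild-type ones (4.53% of all genes) and 1 had all below (4.14%). Other inner membrane transporters had 11 positive and 6 negative among 17 tested (median 0.03), led by Smdt1, a subunit of the calcium uniporter (105 ± 7.09 and 123 ± 14.2). The porins of the outer membrane, Vdac1, Vdac2 and Vdac3, had log2 fold changes between -0.03 and 0.04. Of 15 genes of mitochondrial content and biogenesis 6 were positive and 9 negative (median -0.02). The coactivator Ppargc1b was at 11.2 ± 0.967 and 9.11 ± 1.16 FPKM and the protease Lonp1 at 17.7 ± 1.82 and 20.8 ± 1.68. No gene of these lists passed the test over all genes, where 0.0151% of all genes did, and Got1 alone had an unadjusted limma p under 0.05.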

How the data were processed

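Poly-A RNA of 6 distal colon libraries was sequenced. The deposited values are FPKM from the authors, rounded to 2 decimals, in 1 table. HISAT2, RSEM and mm39 are named in the submitters' processing notes, while their versions, any filter and any other scaling are not stated. Reads per library were estimated from steps of 1 read in 102 to 128 low values per library, drawn from 382 short non-coding genes. Between 85.2% and 92.4% of these values lay within 0.05 of a whole read. They were picked with a preset of 18000000 reads and of 36 bases taken off each length, and the fit returned the same 36. A gene entered the test if 3 of the 6 libraries reached 1 FPKM. limma 3.58.1 (R 4.3.3) fitted genotype alone to log2(FPKM + 1), using eBayes with trend and two-sided p-values, which were adjusted by Benjamini-Hochberg over 13247 genes (threshold 0.05). Standard errors and 95% intervals are limma's, and the median standard error of a member was 0.13. The procedure was tested on simulated data in which the planted changes were larger than any found in the members. That test cannot show how often differences as small as those of the members would be found. An exact permutation test of 3 against 3 cannot go below p = 0.1 and was not used. The series' design text gives 3 mice per group. Values in every library were to be given for the 8 members of highest mean, the 8 of smallest p, closely related pairs and the 3 nearest the filter on each side. Slc25a15, Slc25a16, Slc25a17, Slc25a26, Slc25a32, Slc25a38, Slc25a42, Slc25a45, Slc25a46, Slc25a51 and the low members Slc25a18, Slc25a21, Slc25a31 and Slc25a54 fall outside that rule. They were described after their values were seen. Of the members inside the rule, Slc25a27, Slc25a43, Slc25a47 and Slc25a53 are given as group means rather than by library. Slc25a11 is given in wild type as a range. The members and lists were chosen with earlier results of these data known. The values of 1 tested member are not reported here, although it is in the counts. Protein sequences were not used here, and Slc25a2 and Slc25a41, which are on the role lists, were not analysed here.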

Additional observations from a re-analysis of the deposited data

How the results depend on the processing

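The count of members passing the adjusted threshold was 0 under all 18 alternatives, with a smallest limma adjusted p of 0.793 (without knockout replicate 1). Members at an unadjusted limma p under 0.05 numbered 3, and 5 after rescaling to the same total, 5 with no trend, and 0 to 5 with 1 library left out. The share of all genes was 3.4%, 3.34% and 3.45% in the first 3 of these, 2.4% without wild-type replicate 2 (0 members) and 6.1% without knockout replicate 1 (4 members). Slc25a25 had an unadjusted p of 0.0238 to 0.0575, Slc25a35 of 0.0229 to 0.0732 and Slc25a1 of 0.0389 to 0.0826 with 1 library left out, and all 3 kept their direction under every alternative. Non-overlapping members numbered 8, against 8.67% of all genes, and 7, against 8.67%, after rescaling to the same total. They numbered 6, against 9.04%, by median of ratios and 6 of 28, against 8.87%, with a mean of at least 5 FPKM. With 1 library left out they numbered 9 to 15, where fewer libraries overlap less often: 16.1% to 22.4% of all genes did not overlap then, with 15 members against 18.5% without knockout replicate 2 and 10 against 22.4% without knockout replicate 1. Over all genes 2 passed, and 3 with 0.1 added in place of 1, no filter on low values, no trend, a robust prior or array weights. The count was 0 with a mean of at least 5 FPKM, in protein-coding genes only, with the replicate block, and without any library in turn. The median log2 fold change of the members lay between -0.08 and -0.01, and that of all genes between -0.01 and 0.02. Positive values were found in 9 to 16 of the members tested (32.1% to 44.4%). The share of all genes, 52.7%, was taken in the main fit only.

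Direction was followed only in the 25 tested members inside the rule for giving values by library, and not in the other tested members. It changed in 24 of 445 values, all of 11 members with log2 fold changes between -0.13 and 0.05, and the cause was not tested. Slc25a11 was at -0.0226 after rescaling to the same total and -0.00626 by median of ratios; with array weights Slc25a23 was at 0.132 and Slc25a30 at -0.048. With 1 library left out the ranges were -0.0943 to 0.0115 for Slc25a5, -0.0703 to 0.119 for Slc25a4, -0.0575 to 0.0931 for Slc25a11, -0.284 to 0.254 for Slc25a23, -0.123 to 0.0546 for Slc25a13, -0.212 to 0.0886 for Slc25a28, -0.0884 to 0.1 for Slc25a30, -0.262 to 0.0441 for Slc25a36, -0.189 to 0.0488 for Slc25a27, -0.0518 to 0.0956 for Slc25a39 and -0.25 to 0.085 for Slc25a40.

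Same-numbered libraries did not all deviate together (correlations of 0.27, -0.10 and 0.06 across genes for replicates 1 to 3). The value for replicate 1 was the highest of any wild-type and knockout library, followed by 0.25 for wild-type replicate 3 with knockout replicate 2. Not every library correlated best with its own number, so the numbers were not taken as pairs. With the replicate block 3 members had an unadjusted p under 0.05 and 0 passed. Where a member is under 5 FPKM, depth and the added 1 both limit what a fold change can show.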
